A study of Mus musculus with 16 samples.

Results

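The eosinophil genes and eotaxins described here are 9 genes taken by symbol from the 18635 genes listed in the count tables: Ccl11 and Ccl24, which encode the chemokines eotaxin-1 and eotaxin-2, the receptors Ccr3 and Il5ra, the surface lectin Siglecf, the granule protein genes Prg2 and Epx, and the eosinophil-associated ribonuclease genes Ear2 and Rnase2a. They were chosen on their values in the KPC contrast of genotypes, so those values are given as a description, with no p-value of their own. RNA was sequenced from samples labelled as mouse tumours, grown from cancer cell lines implanted in syngeneic mice. The implanted lines had Trp53bp1, which encodes the DNA repair factor 53BP1, either intact or knocked out. ID8 is an ovarian and KPC a pancreatic cancer line. The 4 groups were 3 wild-type ID8, 3 Trp53bp1 knockout ID8, 5 wild-type KPC and 5 Trp53bp1 knockout KPC libraries, 16 in all. The labels place the knockout in the implanted line. They number the libraries as biological replicates and name neither the clone nor the animal behind each, so spreads and p-values describe these libraries.

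Eosinophils are granulocytes that mature in bone marrow under the cytokine IL-5, read by the receptor chain that Il5ra encodes together with the shared chain Csf2rb. The eotaxins, made by macrophages, fibroblasts and epithelium after IL-4 or IL-13, attract them through CCR3. Their granules hold major basic protein (Prg2), eosinophil peroxidase (Epx) and ribonucleases of the Ear family, and mouse eosinophils carry the inhibitory lectin Siglec-F. Siglec-F is also found on alveolar macrophages and on some epithelial and neutrophil populations, and the Ear genes are transcribed in some macrophages.

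The start sites of 4 of these genes are shown because the genes differ in behaviour: Siglecf, Ear2 and Rnase2a were higher in knockout KPC libraries, and Il5ra overlapped throughout between genotypes. The windows run from 250 bases before to 50 bases after each start, 5′ to 3′ on the gene's strand, from RefSeq on GRCm38.p6. Capitals mark GATAA, a core sequence bound by GATA factors, or its reverse complement TTATC. The windows are chr7:43351091-43351390 on the plus strand for Siglecf, chr14:44102404-44102703 on the plus strand for Ear2, chr14:51256063-51256362 on the minus strand for Rnase2a and chr6:106748988-106749287 on the minus strand for Il5ra.
Siglecf: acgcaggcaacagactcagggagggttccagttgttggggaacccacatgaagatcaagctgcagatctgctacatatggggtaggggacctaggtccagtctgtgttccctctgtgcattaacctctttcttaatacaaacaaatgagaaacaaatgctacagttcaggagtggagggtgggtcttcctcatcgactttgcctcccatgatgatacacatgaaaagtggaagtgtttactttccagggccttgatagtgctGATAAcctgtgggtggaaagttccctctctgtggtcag
Ear2: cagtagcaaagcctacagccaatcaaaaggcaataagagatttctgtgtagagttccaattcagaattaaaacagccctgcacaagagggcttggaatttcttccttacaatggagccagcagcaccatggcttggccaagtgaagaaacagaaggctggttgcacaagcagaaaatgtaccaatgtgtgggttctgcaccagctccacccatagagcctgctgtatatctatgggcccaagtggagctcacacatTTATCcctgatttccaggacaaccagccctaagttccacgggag
Rnase2a: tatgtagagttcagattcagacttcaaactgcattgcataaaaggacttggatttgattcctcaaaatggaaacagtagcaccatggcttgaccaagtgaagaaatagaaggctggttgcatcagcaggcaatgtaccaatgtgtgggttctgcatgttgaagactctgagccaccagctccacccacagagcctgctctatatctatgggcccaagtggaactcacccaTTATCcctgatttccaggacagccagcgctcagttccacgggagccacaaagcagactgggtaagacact
Il5ra: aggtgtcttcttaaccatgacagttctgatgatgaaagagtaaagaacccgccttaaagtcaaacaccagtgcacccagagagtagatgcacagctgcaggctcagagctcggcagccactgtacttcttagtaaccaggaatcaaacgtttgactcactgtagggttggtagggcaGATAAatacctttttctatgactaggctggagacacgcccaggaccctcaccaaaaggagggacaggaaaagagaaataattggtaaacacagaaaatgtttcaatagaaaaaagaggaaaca

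RefSeq windows were matched for 6 of the 9 genes, and Ccl11, Ccl24 and Prg2 had no entry. GATAA on either strand was found in 5 of the 6 windows (those of Ccr3, Il5ra, Siglecf, Ear2 and Rnase2a, not that of Epx), against 25.4% of all 32851 promoter windows of this length. A spaced palindrome of the STAT6 type, TTCNNNNGAA, was found in Il5ra and Epx and in 6.95% of all windows. The C/EBP type motif TTGCNNAA was found in Ear2 and Rnase2a and in 10.8% of all windows. The Ear2 and Rnase2a windows were 87.8% identical over 255 aligned bases, so they are not independent of each other.

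Library totals were 17902869 to 19302946 counts in KPC and 18963862 to 19727553 in ID8. A floor of 3 counts was 0.155 to 0.167 CPM (counts scaled by library size) in KPC and 0.153 to 0.158 in ID8, and it covers counting error only. Trp53bp1 in knockout libraries was 66.3% of wild type in KPC (27.9 to 37.9 against 46.7 to 56.0 CPM, exact two-sided permutation p = 0.00794) and 39.9% in ID8 (17.8 to 18.8 against 44.1 to 49.4 CPM, exact permutation p = 0.1, the smallest that 3 against 3 allows). Skeletal muscle RNA varied among KPC libraries, with 6 muscle genes summing to 497 to 26610 CPM in wild type and 7.07 to 5310 CPM in knockout, and 4 libraries (wild type 2 and 4, knockout 2 and 5) had the muscle actin gene Acta1 above 1000 CPM. Ptprc, the pan-leukocyte gene CD45, had 0 counts in all ID8 libraries, which the labels call tumours, and T cell genes were at 0 there as well.

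In KPC, 7 of the 9 genes had more RNA in knockout tumours, from 2.34-fold in mean CPM for Ccl11 to 14.2-fold for Prg2, and more for Rnase2a. Il5ra was high in both genotypes, and Epx was too low for the count filter, which the other 8 passed. These 7 were among the 6.67% of all 14283 genes tested that edgeR's quasi-likelihood fit called higher (Benjamini-Hochberg adjusted p under 0.05), and 0 were among the 7.01% called lower. The number was 2 (Ccl24 and Rnase2a) with the muscle score as a covariate and 7 without the 4 libraries high in Acta1. It was 6, without Ccl11, with a replicate block. It was also 6, without Ccl11, when wild-type library 1, 2 or 5 or knockout library 1, 4 or 5 was left out. For 6 genes every knockout library lay above every wild-type library, as for 5.34% of all genes tested. The genes were picked for this difference, so none of these counts is a test of it and nothing is read from them. Il5ra and Epx did not follow the other 7 genes: the former was high in both genotypes and the latter was near 0 in both. Whether eosinophils were the source of the RNA of the 9 genes was not tested. In ID8, 0 of the 9 genes passed the count filter.

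**Figure D1:**
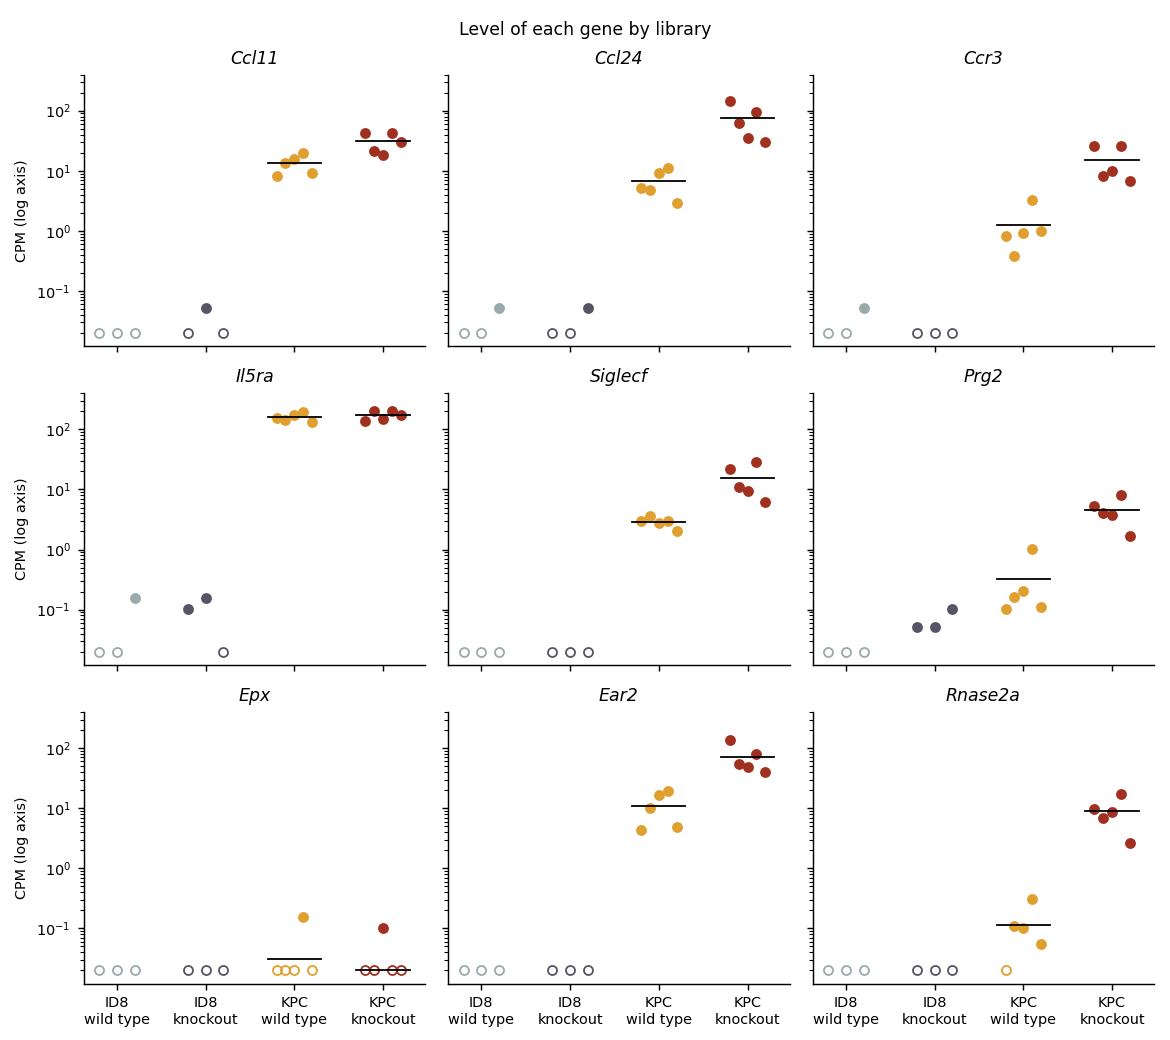
Level of each of the 9 genes in the 16 libraries, in CPM on a log axis, by line and genotype. Each point is a library, open circles at the foot of the axis are libraries with 0 counts, and bars are KPC group means; KPC knockout points lie above wild type for 6 genes, Ccl11 overlaps, Il5ra is level, Epx is near 0, and ID8 holds almost no counts.

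Both eotaxin genes had higher means in knockout tumours, and the fold was larger for Ccl24 than for Ccl11. Ccl24 was at 5.22, 4.85, 9.13, 11.1 and 2.95 CPM in wild-type libraries 1 to 5 and at 147.6, 63.5, 35.8, 94.4 and 30.3 CPM in knockout libraries 1 to 5. The lowest knockout library was 2.74 times the highest wild-type library, and the fitted log2 fold change was 3.48 (SE 0.53), or 11.2-fold in mean CPM. Knockout libraries 1 and 4 were highest and library 5 lowest, 4.87-fold apart from highest to lowest.

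Ccl11 was at 8.17, 13.5, 16.0, 19.9 and 9.13 CPM in wild type and at 42.4, 21.5, 18.3, 43.3 and 30.5 CPM in knockout. The groups overlapped, since knockout library 3 lay below wild-type library 4, and the fitted log2 fold change was 1.23 (SE 0.311), or 2.34-fold in mean CPM. Over all alternatives the log2 fold change of Ccl11 was 1.08 to 1.67.

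Ccr3 encodes the eotaxin receptor, the defining chemokine receptor of eosinophils. It was at 0.828, 0.381, 0.929, 3.20 and 0.984 CPM in wild type and at 26.3, 8.08, 9.81, 25.5 and 6.65 CPM in knockout. The groups did not overlap, and wild-type library 4 stood well above the other wild-type libraries. The fitted log2 fold change was 3.58 (SE 0.617), or 12.1-fold in mean CPM. Without wild-type library 4 the wild-type mean of Ccr3 was 0.780 in place of 1.26 CPM and the log2 fold change was 4.28.

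Il5ra, the ligand-binding chain of the IL-5 receptor, did not follow the other genes. It was at 157.6, 141.4, 175.6, 191.7 and 135.5 CPM in wild type and at 139.6, 204.1, 147.3, 201.2 and 174.8 CPM in knockout. The groups overlapped throughout, with a log2 fold change of 0.11 (SE 0.133). Per kilobase of exon, Il5ra was the highest of the 9 genes in wild-type KPC at 44.9 ± 6.55 CPM per kilobase (SD, n = 5), where Ccr3 was at 0.386 ± 0.339 and Siglecf at 1.03 ± 0.209. Wild-type KPC tumours held much Il5ra RNA beside little RNA of Ccr3, Siglecf, Prg2 and Epx. Ear2 lay between, at 15.2 ± 9.29 CPM per kilobase. The level of Il5ra varied least among libraries, with a coefficient of variation of 14.6% in wild type and 17.1% in knockout, against 20.3% to 123% for the other tested genes.

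Siglecf was at 3.00, 3.65, 2.73, 2.94 and 2.02 CPM in wild type and at 21.7, 10.8, 9.29, 29.0 and 6.12 CPM in knockout. Every knockout library lay above every wild-type library. The fitted log2 fold change was 2.42 (SE 0.408), or 5.37-fold in mean CPM. Unlike most of the other genes, Siglecf was not highest in wild-type library 4 among the wild-type libraries.

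Prg2, the gene of major basic protein, was at 0.103, 0.163, 0.206, 1.03 and 0.109 CPM in wild type and at 5.22, 4.02, 3.77, 8.21 and 1.67 CPM in knockout, where knockout library 4 was highest and 5 lowest. The groups did not overlap, and the fitted log2 fold change was 3.79 (SE 0.653). It was 4.91 without wild-type library 4, which held 20 of the 31 wild-type counts, so that library sets the size of the Prg2 difference.

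Epx, the gene of eosinophil peroxidase, had 3 counts in wild-type library 4, 2 counts in knockout library 3 and 0 in the other 8 KPC libraries. At these counts no genotype difference was detectable (ratio of summed counts, scaled for library size, 0.669, 95% counting interval 0.0559 to 5.84). Epx RNA was thus at or under the floor in both genotypes, including the knockout libraries that were highest in Ccr3, Siglecf and Prg2. What this means for the number or maturity of eosinophils was not tested.

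The ribonuclease genes encode cationic granule proteins. Ear2 was at 4.40, 9.97, 16.3, 19.2 and 4.81 CPM in wild type and at 137.5, 55.1, 47.9, 80.9 and 39.5 CPM in knockout, with no overlap, a log2 fold change of 2.72 (SE 0.506) and 6.60-fold in mean CPM. Of its 670 stretches of 50 bases, 41.5% also occur in transcripts of other genes, 26% in Ear10, so the split of reads among Ear genes by the counting tool is uncertain. Rnase2a shares no such stretch.

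Rnase2a had 0, 2, 2, 6 and 1 counts in wild-type libraries and 180, 129, 168, 305 and 50 counts in knockout libraries. The ratio of summed counts, scaled for library size, was 75.9 (95% counting interval 42.2 to 153), and the fitted log2 fold change was 6.19 (SE 0.677). Both rest on only 11 wild-type counts in all. Wild-type counts were at or under the floor of 3 in all libraries but library 4, and all knockout libraries were well above it. Without wild-type library 4 the wild-type mean of Rnase2a was 0.0667 in place of 0.115 CPM and the log2 fold change was 6.94.

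Per kilobase of exon, the order of levels in knockout KPC was Ear2 (100.3 ± 55.2 CPM per kilobase, SD, n = 5), Ccl24 (57.4 ± 37.3), Il5ra (48.5 ± 8.31), Ccl11 (28.8 ± 10.7), Rnase2a (13.0 ± 7.57), Siglecf (5.52 ± 3.45), Prg2 (5.46 ± 2.86), Ccr3 (4.67 ± 2.99) and Epx (0.00754 ± 0.0169). Siglecf, Prg2 and Ccr3 are neighbours within their spread, as are Ear2, Ccl24 and Il5ra. The spreads of Ccl24 and Ccl11 also overlap, as do those of Rnase2a and Siglecf. In wild type the order was Il5ra, Ear2 (15.2 ± 9.29), Ccl11 (12.3 ± 4.48), Ccl24 (5.13 ± 2.57), Siglecf, Ccr3, Prg2 (0.385 ± 0.476), Rnase2a (0.167 ± 0.170) and Epx (0.0113 ± 0.0253). Ear2 and Ccl11 were within their spread, as were Ccr3 and Prg2, and Prg2 and Rnase2a. Both are orders of means, and many of their steps are smaller than the spread.

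Most of the genes went up and down together from library to library within a genotype. Among the 8 tested genes, wild-type library 4 was the highest wild-type library for 7 and knockout library 5 the lowest knockout library for 6. Knockout library 4 was highest for 4 genes, library 1 for 3, and library 2 for Il5ra. After each genotype's mean was taken away, log2 CPM over the 10 KPC libraries gave Pearson r of 0.551 to 0.917 (median 0.716) for the 21 pairs without Il5ra, and 0.088 to 0.46 (median 0.251) for the 7 pairs with it. The closest pair was Prg2 and Rnase2a. The libraries share their depth, tissue content and scaling across genes, so these are descriptions without a p.

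**Figure D2:**
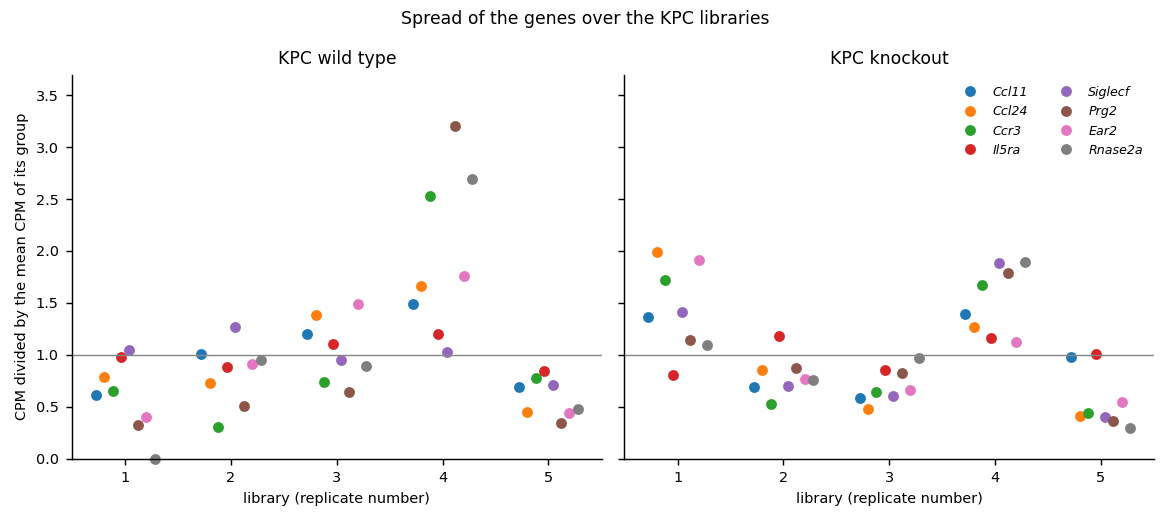
CPM of each of the 8 tested genes divided by the mean of its genotype group, for KPC wild-type libraries 1 to 5 on the left and knockout libraries 1 to 5 on the right. The line marks the group mean; wild-type library 4 lies highest for 7 genes and knockout library 5 lowest for 6.

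By the same measure, over the 12712 genes at or above 1 in mean log2 CPM, the genes most like Ccl11 in their spread were Nfkbia (r = 0.973), an inhibitor of NF-kB, Riok3 (0.963), a kinase, the calcium channel gene Orai1 (0.963), the demethylase gene Kdm2b (0.961) and Nfkbid (0.956). Those most like Ccl24 were Ptpn7 (0.963), a leukocyte phosphatase, Tfg (0.955), the ADP/ATP carrier gene Slc25a5 (0.951), cytoplasmic actin Actg1 (0.944) and Xxylt1 (0.942). Those most like the mean of the other tested genes were Sipa1 (0.965), Inpp5b (0.964), Cyp4f18 (0.96), Arrdc4 (0.957) and Man2b1 (0.954). Of these, Riok3, Orai1, Kdm2b, Tfg, Xxylt1 and Sipa1 did not pass the test between genotypes. The highest of 12712 correlations over 10 libraries is high by selection.

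Total leukocyte RNA was read from Ptprc. It was at 51.0, 56.7, 92.8, 140.6 and 51.2 CPM in wild type and at 217.7, 105.0, 133.1, 221.8 and 137.1 CPM in knockout (log2 fold change 1.05, SE 0.331, edgeR adjusted p = 0.0596), with overlapping groups, and did not pass. It passed with DESeq2 (adjusted p = 0.00577), without wild-type library 4 (edgeR adjusted p = 0.00988) and without the libraries high in Acta1 (0.0231). In bulk tumour RNA, fewer cells of a type and less RNA per cell cannot be told apart.

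Divided by Ptprc in each library, 5 of the genes did not overlap between genotypes. The knockout median was 58.4 times the wild-type median for Rnase2a, 12.7 for Prg2, 4.98 for Ccl24, 4.75 for Ccr3 and 2.67 for Ear2. The share of all genes without overlap was not computed for this ratio. The genes were picked on this contrast, so nothing is read from the count of 5. Siglecf was 2.53 times higher by medians, with overlap, and Ccl11 was 1.13 times, with overlap (0.137 to 0.222 in knockout and 0.141 to 0.237 in wild type). Ccl11 RNA was at nearly the same level relative to Ptprc in both genotypes. Relative to summed macrophage markers its knockout median was 1.59 times the wild-type median, with overlap. Relative to summed mast cell and basophil markers it was 1.63 times, also with overlap. Il5ra relative to Ptprc was lower in knockout by medians (0.444 times), with overlap.

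**Figure D3:**
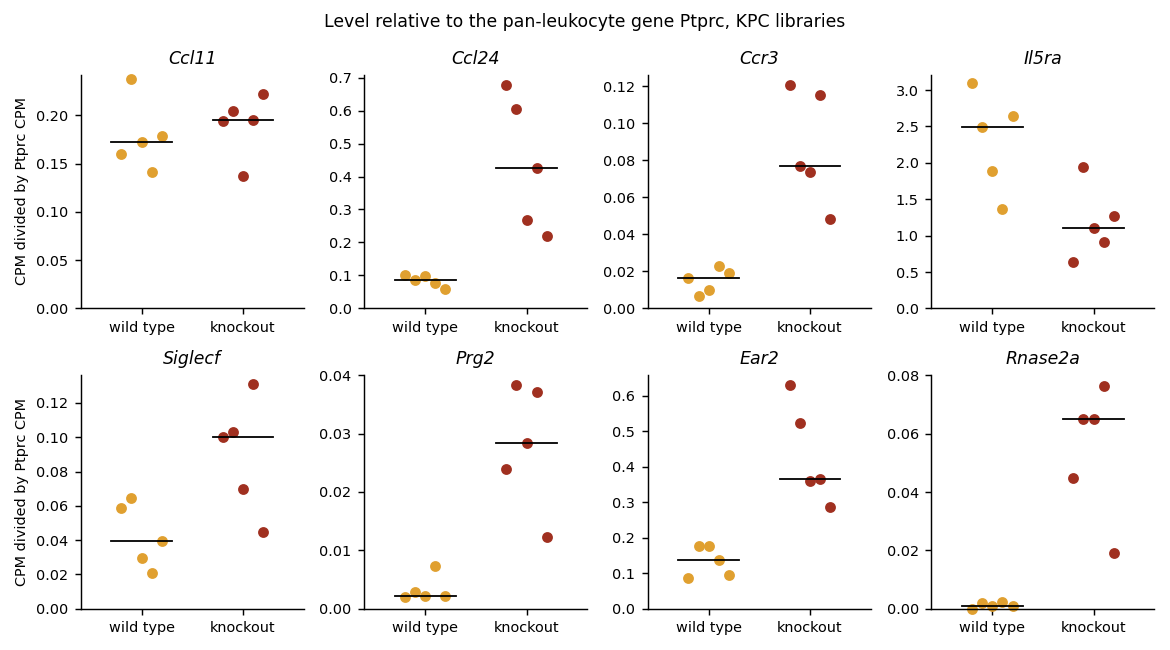
CPM of each of the 8 tested genes divided by the CPM of Ptprc in the same KPC library, by genotype. Points are libraries and bars medians; Ccl24, Ccr3, Prg2, Ear2 and Rnase2a do not overlap between genotypes, while Ccl11, Siglecf and Il5ra do.

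Markers of other cells were read beside these genes. Over all 14283 genes tested in KPC, edgeR called 6.67% higher and 7.01% lower, the shares to set beside each count here and below. All these lists were chosen with earlier results of these data known, so their counts are description. Of mast cell and basophil markers 1 of 9 tested rose (Mcpt4, a connective tissue mast cell protease, log2 fold change 1.24, SE 0.255, adjusted p = 0.0154), and their sum was 71.8 to 133.7 CPM in wild type and 134.2 to 170.7 CPM in knockout. Of macrophage markers 0 of 9 passed in edgeR (7 at an unadjusted p under 0.05, and 7 higher in DESeq2), with sums of 1736 to 3719 and 2839 to 4534 CPM. Without wild-type library 4, 9 of 9 passed. Of neutrophil markers 2 of 7 rose, Ly6g and Retnlg, with sums of 26.5 to 61.4 and 71.6 to 185.2 CPM. Of T cell markers 1 of 6 rose (6 without wild-type library 4, and 0 without any other 1 library), with sums of 9.83 to 83.2 and 55.1 to 100.1 CPM.

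Of alveolar macrophage markers Chil3 and Car4 rose among the 3 tested, and Marco was at 0.0547 to 1.45 CPM in wild type and 0.106 to 1.91 CPM in knockout, too low to be tested. Of epithelial markers 4 of 5 rose, with sums of 4787 to 6007 and 7994 to 9834 CPM. Muscle markers had a median log2 fold change of -2.05, with 0 of 6 passing in edgeR, 0 at an unadjusted p under 0.05 and 0 in DESeq2. Without the 4 libraries high in Acta1, Acta1 was lower in knockout (log2 fold change -5.88, SE 0.845, edgeR adjusted p = 0.0154). Those libraries were removed by the level of Acta1 itself. With the muscle score as a covariate, the log2 fold changes of the eosinophil genes were 1.22 for Ccl11, 3.09 for Ccl24, 2.83 for Ccr3, 1.94 for Siglecf, 3.34 for Prg2, 2.43 for Ear2 and 5.43 for Rnase2a. Fibroblast markers had 0 of 6 passing in edgeR, 0 at an unadjusted p under 0.05 and 0 in DESeq2. Adipocyte markers had a median log2 fold change of -1.19, with 0 of 4 passing in edgeR (4 at an unadjusted p under 0.05, and 2 lower in DESeq2) and sums of 22.2 to 105.1 CPM in wild type and 13.1 to 27.3 CPM in knockout. Of tuft cell markers Avil fell, 1 of 2 tested (log2 fold change -1.77, SE 0.314, edgeR adjusted p = 0.00871; 2 lower in DESeq2), with sums of 104.8 to 206.7 and 61.1 to 68.3 CPM. The part of these cell types in the result was not tested.

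Some other genes used by eosinophils also rose. Of 15 listed, 8 were tested, 4 rose and 0 fell, where 6.67% of all genes tested were called higher. Their median log2 fold change was 1.41 against -0.01 over all genes tested. The list was chosen with earlier results of these data known. The count filter also keeps genes high in knockout alone, such as Gata1 (0 to 4 counts per wild-type library, 19 to 61 in knockout). It can thus tilt the count and the median upward, and both are given as description. Alox15, the 12/15-lipoxygenase of eosinophils and some macrophages, was at 3.20 to 7.02 CPM in wild type and 23.7 to 83.9 CPM in knockout (log2 fold change 3.38, SE 0.379, adjusted p = 0.00109). Gata1, a transcription factor needed for eosinophil lineage commitment, had 8 counts in all wild-type and 195 in all knockout libraries (4.53, SE 0.553, adjusted p = 0.00132). Cebpe, a factor of granulocyte maturation, was at 0.164 to 1.29 and 3.19 to 11.5 CPM (3.54, SE 0.547, adjusted p = 0.00445), and the adenosine receptor Adora3 at 0.875 to 2.32 and 3.22 to 8.05 CPM (1.81, SE 0.391, adjusted p = 0.0167). Adora3 lost its call with the muscle covariate (adjusted p = 0.129). The inhibitory receptor Pirb (0.83, SE 0.316, adjusted p = 0.102) and the IL-33 receptor Il1rl1 (1.00, SE 0.316, adjusted p = 0.0601) did not pass in edgeR. DESeq2 called 6 of the 8, with Pirb (adjusted p = 0.031) and Il1rl1 (0.00952) among them. Il1rl1 also passed without knockout library 2 (edgeR adjusted p = 0.0488), and Pirb without wild-type library 4 (0.01) and without the libraries high in Acta1 (0.0191).

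Further ribonuclease and granule genes were below the filter, and the following were picked after their values were seen. Ear6 had 4 counts in wild type and 77 in knockout, Ear10 had 6.01 and 41.3, Ear1 had 3 and 19.5, and Prg3 had 0 and 4. Without a filter, edgeR's adjusted p was 0.0197 for Ear6, 0.0484 for Ear10, 0.0659 for Ear1 and 0.187 for Prg3. Rnase2b went the other way, with 30 counts in wild type, of which 24 were in 1 library, and 3 in knockout (adjusted p = 0.163 without a filter). Reads of the Ear genes can be split among near-identical copies.

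Other chemokines that bind CCR3 were abundant beside the eotaxins. Of 3 tested, only Ccl8 rose, from 62.7 to 237.2 CPM in wild type to 225.1 to 468.2 CPM in knockout (log2 fold change 1.46, SE 0.378, adjusted p = 0.0334), with overlap. It lost its call in 7 of the 10 fits without 1 library and with the muscle covariate, where 0 of 3 passed. Ccl5 (1.53, SE 0.57, adjusted p = 0.0978) and Ccl7 (0.61, SE 0.288, adjusted p = 0.17) did not pass, and Ccl5 did without wild-type library 4, its highest wild-type library.

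The IL-5 family of cytokines and its shared receptor had 6 of 8 tested genes higher and 0 lower, with a median log2 fold change of 0.74. Over all genes tested, 6.67% were called higher. Csf2, the gene of GM-CSF, an eosinophil survival factor, rose from 0.820 to 1.91 CPM in wild type to 2.17 to 6.29 CPM in knockout (1.58, SE 0.345, adjusted p = 0.0173). Its receptor chain Csf2ra (1.03, SE 0.246, adjusted p = 0.025) and the signal transducers Stat5a (0.46, SE 0.0864, adjusted p = 0.0106) and Jak2 (0.41, SE 0.0972, adjusted p = 0.024) also rose, as did Csf2rb and Csf2rb2. Stat5b (log2 fold change -0.01, SE 0.176) and Il3ra (0.08, SE 0.153) did not pass. The count was 1 with the muscle covariate. It was 2 without wild-type library 1 or 5, 3 without wild-type library 2 or knockout library 1 or 4, and 4 without knockout library 5.

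Il5 itself, the eosinophil growth factor, was below the filter, with 2 counts in all wild-type and 52 in all knockout libraries (ratio 26.1, 95% counting interval 6.87 to 221). Il4 had 2 and 31 counts (15.5, 3.96 to 134) and Il13 had 3 and 45 (15.0, 4.83 to 75.7). Without a filter, edgeR's adjusted p was 0.0074 for Il5, 0.0278 for Il4 and 0.0256 for Il13. These 3 genes were picked after their values were seen, and every knockout library held at least 1 count of each.

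Of the type 2 cytokine, alarmin and receptor genes 0 of 7 tested passed in edgeR (3 at an unadjusted p under 0.05, and 2 higher and 1 lower in DESeq2). Il4ra had a log2 fold change of 0.46 (SE 0.179, adjusted p = 0.104) and the alarmin Il33 of -0.13 (SE 0.131, adjusted p = 0.516). Tslp, an epithelial alarmin below the filter, had 42 counts in wild type and 43 in knockout.

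Genes induced by IL-4 and IL-13 had 7 of 10 tested higher and 0 lower, with a median log2 fold change of 2.16. Over all genes tested, 6.67% were called higher. Chil4, a chitinase-like gene, was at 0, 0.381, 0.774, 8.83 and 0.656 CPM in wild type and at 558.8, 2174, 268.6, 2635 and 306.5 CPM in knockout (9.11, SE 1.49, adjusted p = 0.00796). Chil3 was at 2.08 to 4.55 and 31.9 to 92.7 CPM (4.27, SE 0.37, adjusted p = 0.000257), Clca1, a goblet cell secretory gene, at 0.103 to 0.878 and 3.19 to 25.0 CPM (4.69, SE 0.752, adjusted p = 0.00575), and Arg1, arginase of alternatively activated macrophages, at 72.7 to 160.7 and 252.2 to 427.5 CPM (1.62, SE 0.254, adjusted p = 0.00516). Postn (0.16, SE 0.141) and Mrc1 (0.73, SE 0.3) did not pass. The count was 4 with the muscle covariate, 4 without wild-type library 5 or knockout library 4, and 8 at the highest, without wild-type library 4.

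Of genes for eosinophil adhesion 4 of 11 rose and 0 fell, with a median log2 fold change of 0.73: the integrin chains Itgb2 (1.18, SE 0.29, adjusted p = 0.0272) and Itgb7 (1.77, SE 0.445, adjusted p = 0.0301), the selectin ligand Selplg (1.28, SE 0.366, adjusted p = 0.0455) and the integrin ligand Icam1 (0.58, SE 0.162, adjusted p = 0.0393). Itgb1 (0.05, SE 0.0607) and Vcam1 (0.18, SE 0.134) did not pass. The count was 0 with the muscle covariate and 8 without wild-type library 4. It was 0 without wild-type library 1, 2 or 5 or knockout library 1, 3 or 4, and 2 without wild-type library 3 or knockout library 5. Over all genes tested, 6.67% were called higher. Many of the adhesion genes are expressed by other leukocytes too.

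**Figure D4:**
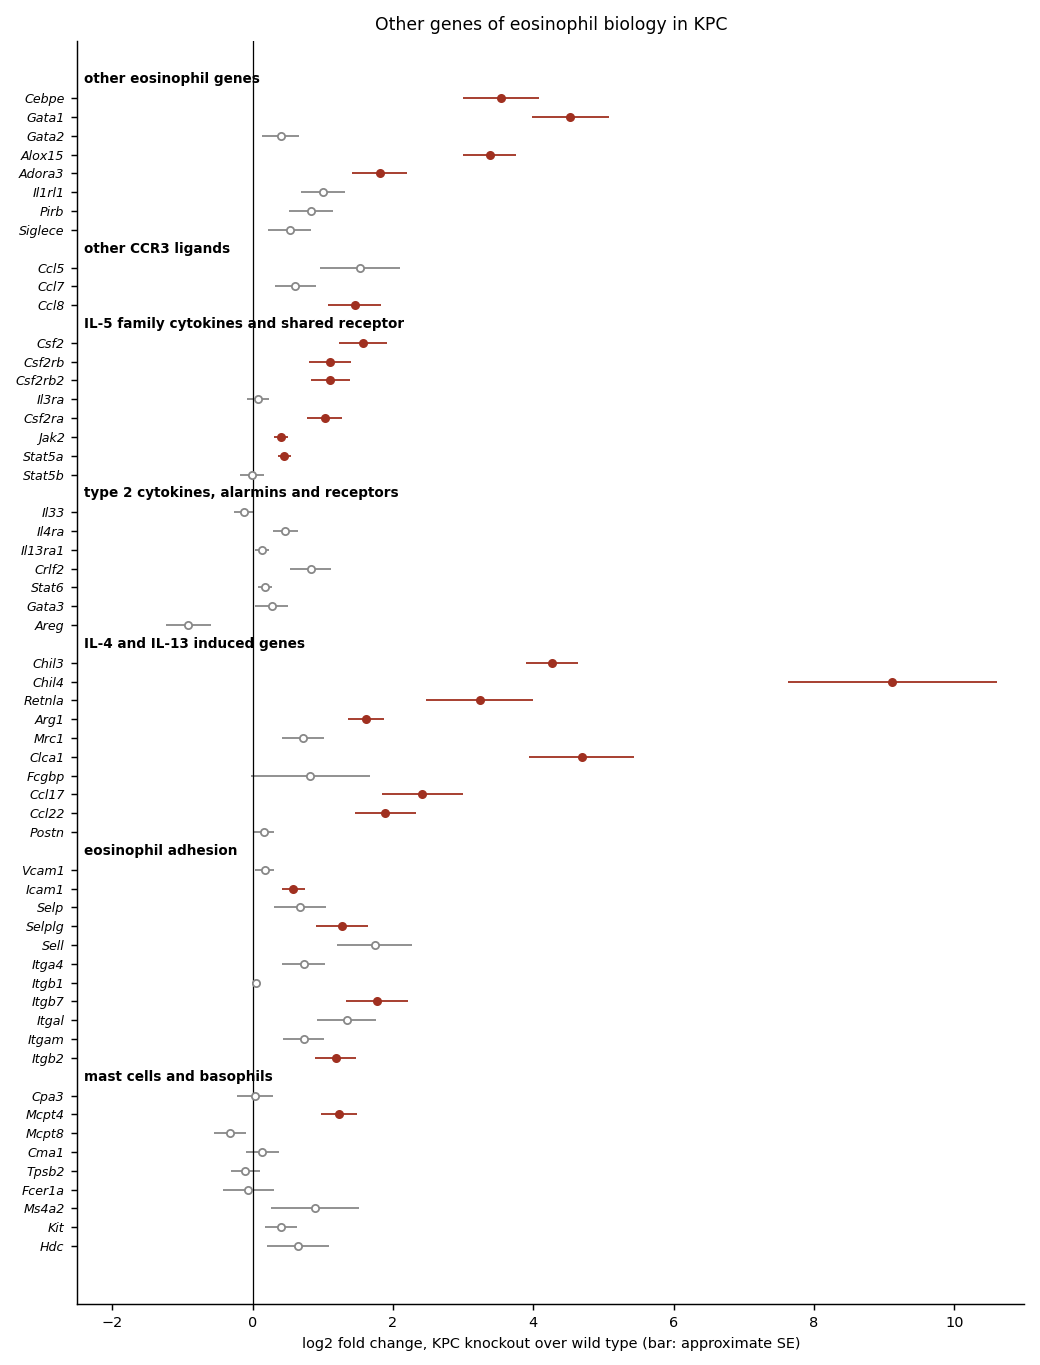
Log2 fold change of knockout over wild type in KPC for the tested genes of the other lists, with approximate standard errors. Filled points passed the edgeR test at an adjusted p of 0.05; of the genes drawn, Chil4, Clca1, Gata1, Chil3, Cebpe and Alox15 lie farthest to the right.

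ID8 libraries served as the contrast, but they held little leukocyte RNA. Ptprc and the T cell genes had 0 counts there. The 9 macrophage markers summed to 17.4 to 19.4 CPM in wild-type and 10.1 to 11.7 CPM in knockout ID8. In KPC these sums were 1736 to 3719 and 2839 to 4534 CPM. The ID8 sums were nearly all Cd68 (mean 11.5 CPM in wild type, 4.19 in knockout) and Mertk (6.93 and 6.44). Adgre1, C1qa, C1qb, C1qc and Ms4a7 had 0 counts in ID8. The part of leukocyte content in the difference between the lines was not tested. Summed over the 6 ID8 libraries, Ccl11 had 1 count, Ccl24 had 2, Ccr3 had 1, Prg2 had 4 and Il5ra had 8, while Siglecf, Epx, Ear2 and Rnase2a had 0. The 4 Prg2 counts all lay in knockout libraries, 1 or 2 in each. A floor of 3 counts over the 6 libraries is 0.0259 CPM. With both genotypes pooled, KPC was at least 347-fold higher for Siglecf, 1590-fold for Ear2 and 172-fold for Rnase2a. Il5ra, with 8 counts in ID8 and 2478 to 3862 in each KPC library, was 2420-fold higher in KPC (95% counting interval 1230 to 5590), and Prg2 69.9-fold (27.1 to 258). The pooled folds of Siglecf, Ear2, Rnase2a and Prg2 come mostly from knockout libraries. In KPC, Rnase2a had 11 wild-type and 832 knockout counts, and Prg2 had 31 and 425. Siglecf had 272 and 1425, and Ear2 had 1044 and 6710. Wild-type KPC means were 0.115 CPM for Rnase2a, 0.323 for Prg2, 2.87 for Siglecf and 10.9 for Ear2.

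The genotype difference of these genes could therefore not be measured in ID8, and the difference between the lines was not tested. Of all 11933 genes tested there, 25.4% were called higher and 25.5% lower in knockout. Genes of the surrounding lists that are expressed in ID8 changed there in both directions. Of other CCR3 ligands 2 of 3 tested rose and 0 fell: Ccl7 11.2-fold in mean CPM, to 5.40 to 5.90 CPM (log2 fold change 3.48, SE 0.208, adjusted p = 9.13e-10), and Ccl5 2.94-fold (1.55, SE 0.153, adjusted p = 3.62e-07). Of the type 2 list 1 of 7 rose, Il33 (2.53, SE 0.0895, adjusted p = 1.48e-12), and 3 fell, Gata3 (-0.40, SE 0.091, adjusted p = 0.00171), Stat6 (-0.25, SE 0.0465, adjusted p = 0.000355) and Il13ra1 (-0.21, SE 0.0475, adjusted p = 0.00141). Of adhesion genes 3 of 5 rose, Vcam1 most (3.48, SE 0.061, adjusted p = 2.72e-16), with Icam1 and Selp, and Itgb1 and Itgb2 fell. Of the IL-5 family list 2 of 5 rose, Csf2ra and Jak2, and Stat5b fell. Of other eosinophil genes 1 of 2 tested rose, Gata2, and Alox15 had a log2 fold change of -0.09 (SE 0.164). Of the IL-4 and IL-13 induced genes 0 were tested in ID8. Genes that fell or are named here outside the rule for named genes were picked after their values were seen.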

How the data were processed

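RNA of 16 mouse samples was sequenced, and their groups and replicate numbers were taken from the labels. The authors deposited expected counts per gene in 4 tables, for which the submitters' processing notes name HISAT, RSEM 1.2.8 and the build GRCm39 (mm39). Per table, between 7.92% and 8.96% of values were fractional and were rounded for tests. Genes absent from a table were set to 0. CPM values are on the TMM scale of each line, and per-kilobase values use union exon lengths.

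Each line was fitted alone with edgeR 4.0.16 (limma 3.58.1, R 4.3.3): filterByExpr, TMM, robust quasi-likelihood F test, Benjamini-Hochberg adjustment at 0.05 over all genes tested. The printed SE is approximate, the absolute log2 fold change over the square root of F. Trp53bp1 was tested by exact permutation. Intervals cover counting error only, at 95%. The procedure was also tested on simulated counts.

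The 9 genes and all lists were chosen with earlier results of these data known. Genes named are the 9, up to 4 called genes of smallest adjusted p and 2 of highest CPM that did not pass per list, and 5 genes per likeness ranking; other genes are named as such. Sequences are from RefSeq on GRCm38.p6, which is not the build of the tables, and their coordinates apply to GRCm38.p6 alone. Alternatives were median-of-ratios size factors, total counts alone, the DESeq2 1.42.0 Wald test, no filter, a filter at 1 CPM, a replicate block, leaving out each library, a muscle covariate, and removal of libraries with Acta1 above 1000 CPM.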

Additional observations from a re-analysis of the deposited data

Results flagged for a closer look

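Within groups of 5 KPC libraries, a library stood apart from the rest of its group (gap over range above Dixon's 95% value of 0.71) in 8 of 80 groups of values examined. Chance gives about 1 in 20 (5%) for independent normal values. These groups share their libraries, so 5% is not the chance rate for this count. In both Epx groups only 1 library had counts, so the ratio is 1 at any count. Wild-type library 4 was high for 6 genes. Ccr3 was at 3.20 CPM there, against 0.984 in the next wild-type library. Prg2 was at 1.03 CPM against 0.206, and Epx at 0.155 CPM, which is 3 counts, against 0. Alox15 was at 7.02 CPM against 3.88, Ccl5 at 32.9 CPM against 11.6 and Chil4 at 8.83 CPM against 0.774. In knockout library 3, Epx was at 0.103 CPM, 2 counts, against 0 in the other knockout libraries. Vcam1 was low in wild-type library 5, at 171.3 CPM against 255.7 in the next.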

How the results depend on the processing

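The fitted log2 fold changes of the 8 tested genes kept their sign under all 18 alternatives in KPC. They ranged from 1.08 to 1.67 for Ccl11, 3.08 to 4.03 for Ccl24, 2.83 to 4.51 for Ccr3, 0.05 to 0.22 for Il5ra, 1.94 to 2.97 for Siglecf, 3.34 to 5.31 for Prg2, 2.36 to 3.41 for Ear2 and 5.43 to 7.66 for Rnase2a. The number of genes passing in KPC, 1953, was 3162 with DESeq2, 356 with the muscle covariate, and 934 to 3106 when 1 library was left out. It was highest without wild-type library 4 and lowest without wild-type library 1. In ID8, 6067 genes passed, and 5253 to 6542 under the alternatives. Scaling by total counts alone moved the share of ID8 calls that were higher from 49.9% to 64.2%, with the median of all genes at 0.08 in place of 0.01 (log2). The cause of these shifts was not tested. Same-numbered libraries did not deviate together as a set (KPC correlations -0.16, 0.587, 0.171, 0.276 and -0.536), so the main fit did not pair them. Mixed correlations cannot exclude that the numbers mark something shared, which the labels do not say. With a replicate block 1665 genes passed in KPC and 5852 in ID8. Of the genes named, Ptprc (edgeR adjusted p = 0.0345), Il1rl1 (0.0466), Ccl5 (0.0435) and Il4ra (0.0471) gained a call in KPC. Nfkbid (0.0532) and Ccl11 lost theirs.

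Counts at or near the floor limit Epx in KPC and Prg2 and Rnase2a in wild-type KPC libraries. In ID8, whose library totals were close to those of KPC, the 9 genes had 0 to 8 counts each, so no genotype difference was detectable there.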
